A study of Mus musculus with 6 samples.

Results

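The genes described here are Wnt ligands, secreted Wnt antagonists and genes that Wnt signalling switches on. They were chosen by symbol from a list of 10 names, and 8 of the 10 have an entry among the 19353 genes of the deposited table. These are the ligands Wnt10b and Wnt4, the antagonists Dkk3, Dkk2, Sfrp2, Sfrp4 and Sfrp1, and the target Axin2. Wnt5a and Nkd1 had no entry in the table used and were not analysed here.

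The libraries were made from polyadenylated RNA of wild-type mouse bone marrow mesenchymal stem cells, stromal cells that can form bone in culture and are labelled as purified and primary. Osteogenic medium with 0.5 µM MCH (melanin-concentrating hormone, a neuropeptide made in the hypothalamus) was given to 3 samples. The other 3 samples, called Control, had no MCH. Dexamethasone at 100 nM, β-glycerophosphate at 10 mM and ascorbic acid at 50 µM were in the medium of both groups. Induction lasted 9 days by the sample titles but 8 days by the design text. No label names an animal, age or separate culture for any sample, so the p-values rest on a spread that may be only technical. The question is how the expression of these genes under osteogenic induction differed with MCH. MCH replicate 3 stood apart from the other 5 libraries in macrophage markers, with 50 counts of Adgre1 against 0 to 11 in the others.

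Wnt proteins are secreted, lipid-modified ligands that bind Frizzled receptors together with the coreceptors LRP5 or LRP6. In the canonical branch this binding stops the destruction of β-catenin, which then enters the nucleus and acts with TCF and LEF factors on target genes. Dickkopf (Dkk) proteins such as Dkk1 act at the coreceptor, and secreted Frizzled-related proteins (Sfrp) bind Wnt ligands directly. In bone the pathway is known for favouring the osteoblast fate of marrow stromal cells.

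With MCH, Wnt10b, Dkk3, Sfrp4 and Axin2 fell, and no member rose. Dkk3 fell to 9.82 ± 0.562 CPM (read counts scaled to library size by TMM; SD, n = 3) with MCH, against 20.1 ± 1.30 CPM in Control. Wnt10b fell to 2.29 ± 0.438 CPM with MCH, against 5.75 ± 0.856 CPM in Control. Sfrp4 and Axin2 also passed the threshold. With 1 library left out, however, Sfrp4 stayed called in 3 of 6 fits and Axin2 in 0. The threshold was a Benjamini-Hochberg adjusted p under 0.05 in edgeR's quasi-likelihood test over 13662 genes, and 9.04% of these were called, 5.40% lower and 3.64% higher. Of the 8 members with an entry, 7 had enough counts to be tested, and 4 of them were called lower. The members were chosen with earlier results of these data known, so this count is a description and not independent support. In bulk RNA, fewer cells of a type and less RNA per cell cannot be told apart, and 4 of 10 marrow stromal markers and 4 of 7 tested osteoblast markers fell in the same libraries.

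All members had low read counts. Library totals ran from 16521980 to 18803949 counts, and the best counted member, Dkk3, had 161 to 411 counts per library. On the length-scaled FPKM level (reads corrected for transcript length and library size), Dkk3 was the highest member with MCH, at 2.91 ± 0.148 FPKM, and lay above 58.9% of all genes in the table. In Control it was also the highest, at 5.995 ± 0.477 FPKM, above 70.4% of genes. With MCH the order of FPKM levels was Dkk3, Sfrp2, Wnt10b, Wnt4, Axin2, Sfrp4, Dkk2 and Sfrp1. The ranges of neighbours overlapped between Wnt10b and Wnt4, Wnt4 and Axin2, Axin2 and Sfrp4, and Sfrp4 and Dkk2, so that order is not resolved there. In Control the order was Dkk3, Sfrp2, Wnt10b, Sfrp4, Axin2, Wnt4, Dkk2 and Sfrp1, and no neighbouring ranges overlapped.

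**Figure D1:**
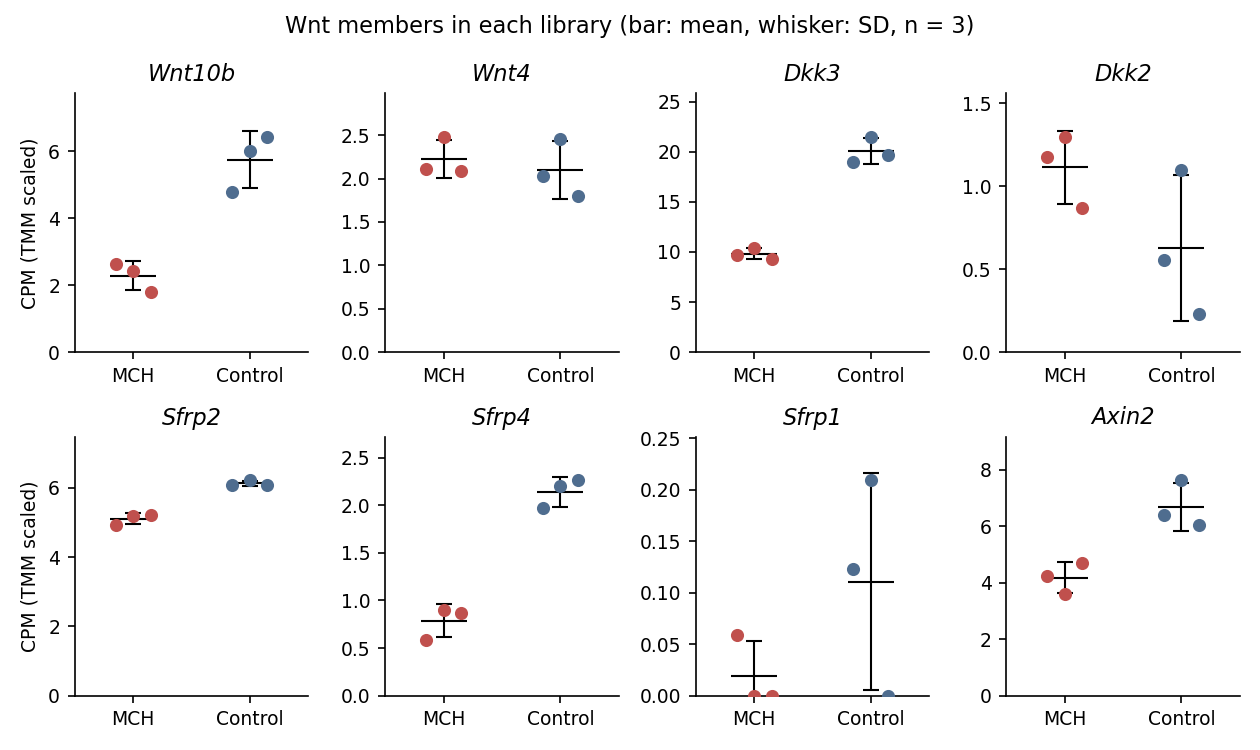
TMM-scaled CPM of the 8 members in each library, MCH left of Control, with each y axis starting at 0; points are libraries, the horizontal bar is the mean and whiskers are the SD (n = 3). The MCH points of Wnt10b, Dkk3, Sfrp2, Sfrp4 and Axin2 all lie below the Control points, while those of Wnt4, Dkk2 and Sfrp1 overlap with them. Over all tested genes, 16.6% were likewise separated with MCH lower.

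Promoter sequence was at hand in RefSeq (GRCm38.p6) for 5 of the 8 members: Wnt10b, Wnt4, Dkk2, Sfrp2 and Axin2. The windows of Wnt10b and Axin2 are shown because these are the members that both passed the threshold and had an entry. Each gives the 250 bases before the start site, 5′ to 3′ on the gene's strand, at chr15:98778151-98778400 (minus strand) and chr11:108920099-108920348 (plus strand). Capitals mark motif matches on either strand. The motifs searched were the GC box GGGCGG, the TATA box form TATAAA, the CCAAT box, and the core TCF and LEF site CTTTGAT with its variant CTTTGAA; the GC, TATA and CCAAT motifs were added after the windows were first searched.
Wnt10b: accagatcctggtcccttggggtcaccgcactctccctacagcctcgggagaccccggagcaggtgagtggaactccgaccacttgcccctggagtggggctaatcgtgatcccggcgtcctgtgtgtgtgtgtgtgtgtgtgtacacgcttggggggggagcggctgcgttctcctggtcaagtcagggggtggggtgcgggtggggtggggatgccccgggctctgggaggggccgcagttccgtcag
Axin2: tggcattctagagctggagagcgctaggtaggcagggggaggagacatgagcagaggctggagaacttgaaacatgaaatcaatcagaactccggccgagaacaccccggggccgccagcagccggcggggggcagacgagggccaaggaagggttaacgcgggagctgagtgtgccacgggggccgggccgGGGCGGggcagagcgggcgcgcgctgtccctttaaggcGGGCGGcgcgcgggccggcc

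Neither form of the TCF and LEF site was in any of the 5 windows of members, and 7.48% of 32851 RefSeq windows of this length held at least 1 form. The Axin2 window held 2 matches to the GC box GGGCGG, a motif in 32.7% of all windows. The Wnt10b window held no match to any of the 5 motifs. The Dkk2 window held a TATAAA match from 32 to 27 bases before the start, a motif in 12.4% of all windows. It also held 2 GGGCGG matches and, on the opposite strand, a CCAAT match, a motif in 33.8% of all windows. The Wnt4 window held 8 GGGCGG matches and none to the other motifs, and the Sfrp2 window held no match. The Wnt4 window spans 137277385 to 137277634 on chromosome 4, but the deposited locus of Wnt4 starts at 137277489. Part of that window thus lies inside the gene as located below, and not all of its matches are upstream of that start. These are descriptions of letters in a short window and bear on no factor.

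Among the ligands, Wnt10b fell and Wnt4 did not pass the test. Wnt10b, a canonical ligand that in mice steers marrow progenitors towards bone and away from fat, lies on chromosome 15 (98771753 to 98778150, minus strand, GRCm38) and has 5 exons in its principal transcript. It had 45, 43 and 31 counts in MCH replicates 1 to 3, against 78, 115 and 111 counts in Control replicates 1 to 3. Every MCH library lay below every Control library, also after scaling, with 1.80 to 2.64 CPM with MCH and 4.79 to 6.44 CPM in Control. The log2 fold change was -1.33 ± 0.21 (SE; MCH minus Control), which puts the level with MCH at 0.398 of Control (95% interval 0.286 to 0.556; edgeR adjusted p = 0.0106). The call held in all 6 fits with 1 library left out, with edgeR adjusted p from 0.0133 to 0.0486.

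Wnt4, a ligand known for its part in kidney and female reproductive tract development, lies on chromosome 4 (137277489 to 137299726, plus strand). It had 36, 44 and 36 counts with MCH, against 33, 47 and 31 counts in Control. The groups overlapped, and the fold was 1.06 of Control with a 95% interval from 0.756 to 1.49 (edgeR adjusted p = 0.833). Folds within that interval, in either direction, remain compatible with these counts. The FPKM ratio of Wnt4 to Wnt10b was 0.585, 0.749 and 0.850 in the MCH libraries, against 0.310, 0.299 and 0.204 in the Control libraries. Wnt10b therefore had the higher FPKM within each of the 6 libraries, with a smaller gap to Wnt4 in those with MCH. The MCH ranges of both genes overlapped, however. In MCH replicate 3 Wnt10b had 31 counts against 36 of Wnt4, before correction for transcript length.

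Of the Dickkopf genes, Dkk3 had the most reads of any member. It encodes a divergent family member whose action on the LRP coreceptors is less settled than that of Dkk1, and it lies on chromosome 7 (112116019 to 112159057, minus strand) with 8 exons in its principal transcript. Its counts were 165, 185 and 161 with MCH, against 309, 411 and 339 in Control. The highest MCH library, at 10.4 CPM, was well below the lowest Control library, at 19.0 CPM. The log2 fold change was -1.03 ± 0.10, or 0.490 of Control (95% interval 0.415 to 0.579; edgeR adjusted p = 0.00210). It was called in all 6 fits with 1 library left out (edgeR adjusted p from 0.00521 to 0.0146).

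Dkk2, an LRP-binding antagonist that mouse osteoblasts need for full matrix mineralisation, lies on chromosome 3 (132085292 to 132180304, plus strand). It had 20, 23 and 15 counts with MCH, against 9, 21 and 4 counts in Control. Control replicate 2 lay within the MCH range, at 1.10 CPM against 0.870 to 1.30 CPM, so the groups overlapped. Dkk2 reached the count minimum in 3 MCH libraries and 1 Control library, and thus entered the test mainly through the MCH group. Its log2 fold change was 0.80 ± 0.49 (edgeR adjusted p = 0.348), and the 95% interval of the fold, 0.784 to 3.84, spans both a fall and a rise. With 1 library left out, the log2 fold change ran from 0.41 (without Control replicate 3) to 1.50 (without Control replicate 2). Dkk2 was called in none of these 6 fits (edgeR adjusted p from 0.153 to 0.620).

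Among the secreted Frizzled-related genes, Sfrp4 fell, Sfrp2 did not pass the test and Sfrp1 was near the floor. Sfrp4, whose loss in humans causes Pyle disease with thin cortical bone, lies on chromosome 13 (19623175 to 19632821, plus strand). It had 10, 16 and 15 counts with MCH, against 32, 42 and 39 counts in Control. Every MCH library, at 0.587 to 0.903 CPM, lay below every Control library, at 1.97 to 2.26 CPM. The log2 fold change was -1.44 ± 0.26, or 0.369 of Control (95% interval 0.244 to 0.559; edgeR adjusted p = 0.0171). The call was lost without MCH replicate 3 (edgeR adjusted p = 0.0601), without Control replicate 2 (edgeR adjusted p = 0.0677) and without Control replicate 3 (edgeR adjusted p = 0.0745), and the log2 fold change stayed between -1.55 and -1.27 in all 6 such fits.

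Sfrp2, a Wnt-binding protein of stromal cells, lies on chromosome 3 (83766321 to 83774316, plus strand) and is overlapped by the antisense gene Gm26771, which was not among the genes used here. It had 84, 92 and 90 counts with MCH, against 99, 119 and 105 counts in Control. The groups did not overlap, with 4.93 to 5.22 CPM with MCH and 6.08 to 6.23 CPM in Control, and 32.8% of all tested genes were likewise separated, 16.6% lower and 16.1% higher. Sfrp2 was not called, with a fold of 0.834 of Control and a 95% interval from 0.679 to 1.02 (edgeR adjusted p = 0.235). Sfrp1, whose loss raises trabecular bone mass in mice, lies on chromosome 8 (23411502 to 23449632, plus strand) and had 1, 0 and 0 counts with MCH, against 2, 4 and 0 in Control. It was too low to test, and the ratio of the group sums per depth, 0.167, had an exact (Clopper-Pearson) 95% counting interval from 0.00363 to 1.38.

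**Figure D2:**
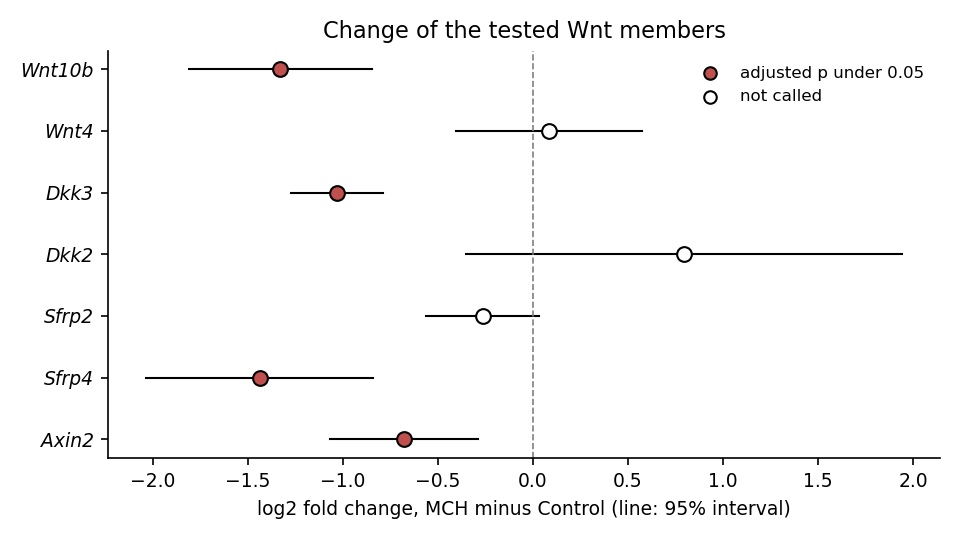
Log2 fold change (MCH minus Control) of the 7 tested members with its 95% interval from edgeR's fit; filled points passed the adjusted p threshold of 0.05. Wnt10b, Dkk3, Sfrp4 and Axin2 lie below 0 with intervals that leave out 0, while the interval of Dkk2 runs from -0.35 to 1.94.

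The 5 members grouped here as antagonists together had a smaller summed level with MCH. Dkk3, whose action on the LRP coreceptors is less settled, made up most of that sum in both groups. Their summed FPKM was 5.38, 5.69 and 5.31 in the MCH libraries, against 8.97, 10.4 and 9.44 in the Control libraries. Dkk3 gave 53.3% ± 1.31 of the sum with MCH and 62.5% ± 0.336 in Control (SD, n = 3 each). Sfrp2 gave 33.0% ± 1.43 with MCH and 22.8% ± 1.05 in Control. Sfrp4 gave 8.13% ± 1.59 with MCH and 12.8% ± 0.853 in Control. The sum fell along with the called genes Dkk3 and Sfrp4 that are part of it, so it is no separate result and carries no test.

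**Figure D3:**
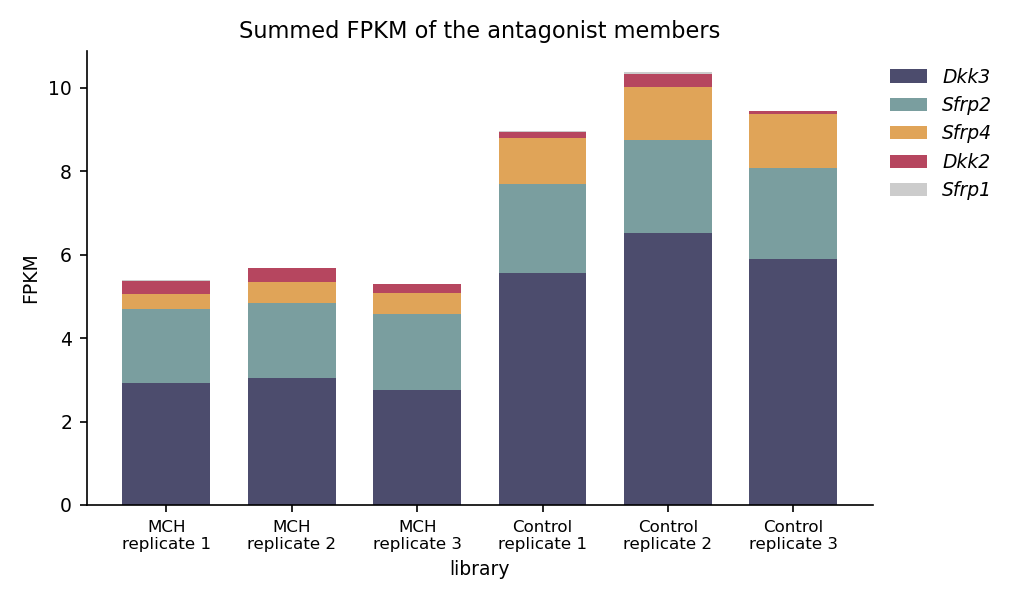
Summed FPKM of the antagonists Dkk3, Sfrp2, Sfrp4, Dkk2 and Sfrp1 as a stacked bar per library, MCH libraries left of Control libraries. The MCH bars reach 5.31 to 5.69 FPKM and the Control bars 8.97 to 10.4 FPKM, with Dkk3 as the largest segment in each.

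Axin2, a scaffold of the complex that degrades β-catenin and itself a widely used readout of β-catenin activity, was the only target gene among the members with an entry. It lies on chromosome 11 (108920349 to 108950783, plus strand), where the antisense gene Gm11670 overlaps it. Its counts were 72, 64 and 81 with MCH, against 104, 146 and 104 in Control. The groups did not overlap, with 3.61 to 4.70 CPM with MCH and 6.04 to 7.64 CPM in Control. The log2 fold change was -0.68 ± 0.17, or 0.624 of Control (95% interval 0.477 to 0.818; edgeR adjusted p = 0.0466). The call was close to the threshold and was lost in each of the 6 fits with 1 library left out, with edgeR adjusted p from 0.0677 without MCH replicate 1 to 0.145 without Control replicate 2. The direction stayed the same in all of them, with log2 fold changes from -0.77 to -0.57. Differences between the fold changes of the called members were not tested.

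**Figure D4:**
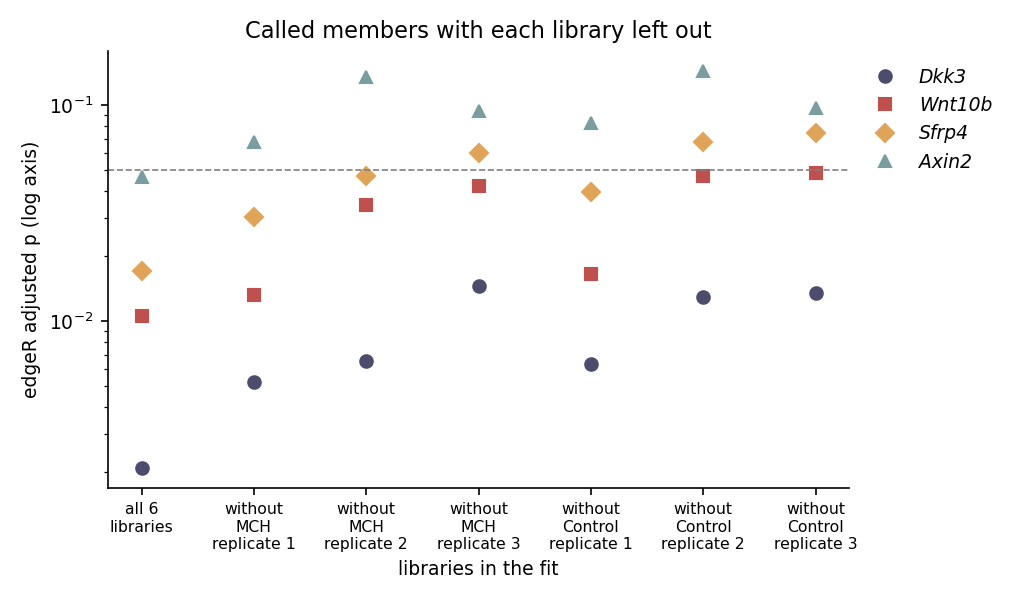
Adjusted p (log axis) of the 4 called members in the fit of all 6 libraries and in the 6 fits that leave out 1 library each; the dashed line is the threshold of 0.05. Dkk3 and Wnt10b stay below the line throughout, Sfrp4 crosses it in 3 fits, and Axin2 lies above it whenever a library is left out.

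The authors' deposited table marks Dkk3, Wnt10b and Sfrp4 as changed, with q-values of 0.000142, 0.000506 and 0.00353. For Axin2 the authors' deposited table gives a q-value of 0.151 and no mark. For Dkk3, Wnt10b and Sfrp4 the mark UP goes with the higher mean in the columns read as Control. The marks come from the same data. They share the direction of the falls above only if those columns are Control, so they are no separate support.

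Other genes of the pathway were read from a list of 110 symbols grouped by role, of which 95 had an entry and 73 were tested. Outside the members, 66 genes were tested, 5 fell and 2 rose, which is 7.58% lower and 3.03% higher. Over all genes tested the shares were 5.40% lower and 3.64% higher, so the pathway list without the members was close to the background. Its median log2 fold change was -0.09, against 0.00 over all tested genes. The 116 tested genes that the deposited table annotates to the KEGG Wnt signalling pathway, a list added after the values were seen, had 10 lower and 3 higher and a median of -0.04.

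Of the 5 genes outside the members that fell, 4 were nuclear factors. In this role 12 genes were tested, none was higher and the median log2 fold change was -0.40. The share lower was 33.3%, against 5.40% over all tested genes. The lists were chosen with earlier results of these data known, so this share is a description and not independent support. Lef1, the HMG-box partner of β-catenin, had 5.51, 6.26 and 6.85 CPM with MCH, against 11.7, 13.4 and 10.3 CPM in Control. The groups did not overlap, and the log2 fold change was -0.93 ± 0.15 (edgeR adjusted p = 0.0118), called in all 6 fits with 1 library left out. Tle2, a Groucho-type corepressor that binds TCF factors, averaged 25.4 ± 1.24 CPM with MCH and 40.4 ± 2.69 CPM in Control (log2 fold change -0.67 ± 0.08, edgeR adjusted p = 0.00435), and was also called in all 6.

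Bcl9 and Bcl9l encode adaptors that tie β-catenin to Pygopus proteins. Bcl9 averaged 42.6 ± 1.73 CPM with MCH and 60.4 ± 4.29 CPM in Control (log2 fold change -0.50 ± 0.08, edgeR adjusted p = 0.0113), and its call was lost without MCH replicate 3 (edgeR adjusted p = 0.0601). Bcl9l averaged 70.3 ± 9.03 CPM with MCH and 104 ± 17.0 CPM in Control (log2 fold change -0.57 ± 0.14, edgeR adjusted p = 0.0492), and it stayed called in 1 of the 6 leave-out fits. The Pygopus gene Pygo2, the most abundant nuclear factor that was not called, averaged 55.6 ± 8.49 CPM with MCH and 68.1 ± 2.85 CPM in Control (edgeR adjusted p = 0.152).

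Of 15 receptor and coreceptor genes, 1 fell, none rose and the median was 0.00. Fzd1, a Frizzled receptor, averaged 12.7 ± 0.587 CPM with MCH and 19.0 ± 2.37 CPM in Control (log2 fold change -0.58 ± 0.12, edgeR adjusted p = 0.0260). It stayed called in 2 of the 6 leave-out fits (highest edgeR adjusted p = 0.0986). The Wnt receptor kinase Ryk, the most abundant of this role that was not called, averaged 183 ± 7.33 CPM with MCH and 168 ± 5.33 CPM in Control and was not called (edgeR adjusted p = 0.222).

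In the R-spondin axis, 1 of 6 tested genes rose. Rspo2, a secreted amplifier of Wnt signalling, had 4.69, 4.97 and 5.22 CPM with MCH, against 2.15, 2.82 and 2.79 CPM in Control. All MCH libraries lay above all Control libraries, and the log2 fold change was 0.93 ± 0.17 (edgeR adjusted p = 0.0192). Rspo2 stayed called in 2 of the 6 leave-out fits (highest edgeR adjusted p = 0.0781). The R-spondin receptor gene Lgr4 averaged 8.24 ± 0.546 CPM with MCH and 7.31 ± 0.677 CPM in Control and was not called (edgeR adjusted p = 0.449).

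The targets did not move together. Besides Axin2, 7 target genes were tested and 1 rose. Ccnd1, the cyclin D1 gene that many mitogenic signals also induce, averaged 134 ± 5.78 CPM with MCH and 91.5 ± 4.41 CPM in Control (log2 fold change 0.55 ± 0.06, edgeR adjusted p = 0.00335), called in all 6 fits with 1 library left out. The adhesion receptor gene Cd44 averaged 118 ± 52.1 CPM with MCH and 144 ± 3.94 CPM in Control and was not called (edgeR adjusted p = 0.675). Axin2 and Ccnd1, both placed in the target role, thus went in opposite directions.

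Ligand secretion genes, cytoplasmic transducers and planar polarity genes had no call among 2, 13 and 7 tested genes. Their most abundant members were Wls, the carrier of Wnt proteins to the cell surface, Ctnnb1, the β-catenin gene, and Vangl1. Ctnnb1 averaged 321 ± 27.3 CPM with MCH and 363 ± 18.4 CPM in Control (edgeR adjusted p = 0.192). Wls averaged 147 ± 15.6 CPM with MCH and 157 ± 10.98 CPM in Control (edgeR adjusted p = 0.556), and Vangl1 averaged 26.5 ± 0.352 CPM with MCH and 22.6 ± 1.53 CPM in Control (edgeR adjusted p = 0.132). Among ligands outside the members, none of 4 tested genes was called, and the most abundant, Wnt11, averaged 9.70 ± 1.05 CPM with MCH and 12.3 ± 1.54 CPM in Control (edgeR adjusted p = 0.177).

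**Figure D5:**
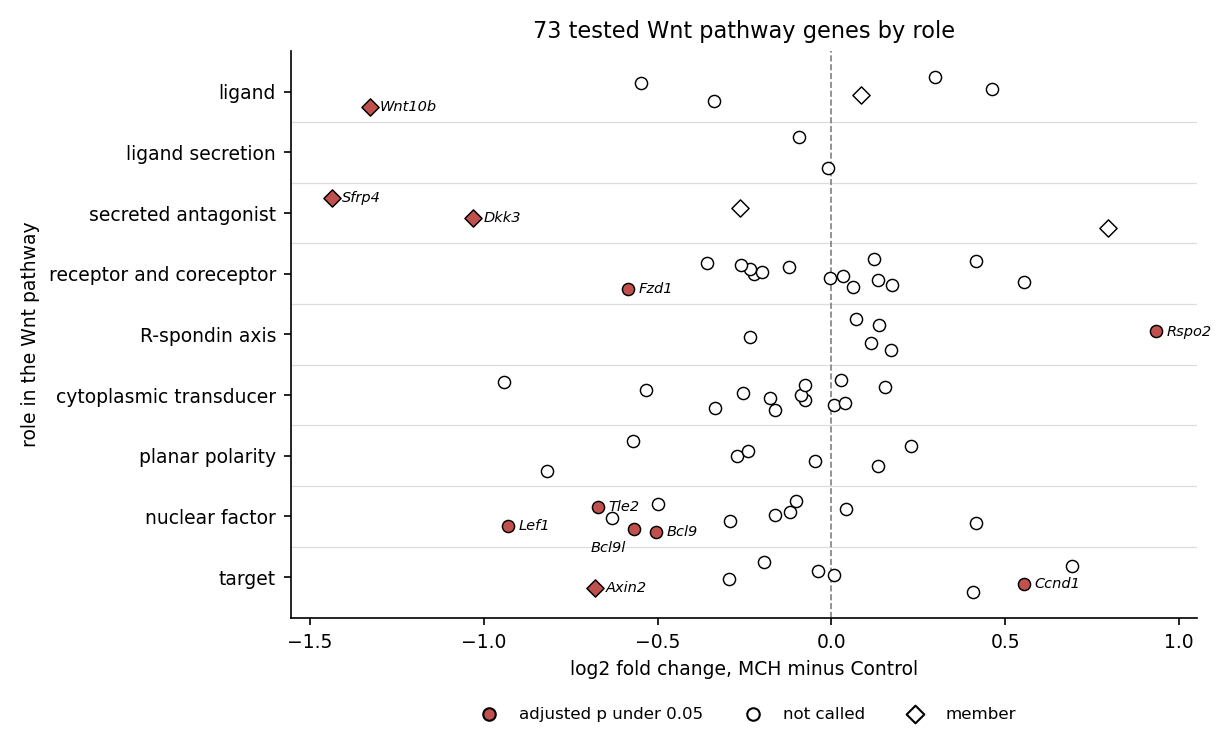
Log2 fold change (MCH minus Control) of the 73 tested Wnt pathway genes by role; diamonds are members, circles are other genes, and filled points passed the adjusted p threshold of 0.05. Filled points below 0 are Wnt10b, Sfrp4, Dkk3, Axin2, Fzd1, Lef1, Tle2, Bcl9 and Bcl9l, and those above 0 are Rspo2 and Ccnd1.

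The counts of calls changed when a library was left out. The 4 called members became 2 when MCH replicate 3 was left out, and also when Control replicate 2 or 3 was, and in each case these were Dkk3 and Wnt10b. The 9 pathway genes called lower, members included, became 4, 5 and 5 in those fits. Over all genes, the 738 lower and 497 higher became 256 and 65 without MCH replicate 3, 342 and 116 without MCH replicate 2, 307 and 110 without Control replicate 2, and 306 and 106 without Control replicate 3. Without Control replicate 1 they became 525 and 285. The counts rose only without MCH replicate 1, to 867 lower and 722 higher.

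Some markers of the cell types that such a culture can hold moved with the same comparison. Over all tested genes 5.40% were lower and 3.64% higher. Of 10 marrow stromal markers, 4 fell (Pdgfra, Pdgfrb, Nt5e and Ly6a) and none rose. The summed level of this list was 986 to 1083 CPM with MCH and 1595 to 1721 CPM in Control. Ly6a was the largest part of that sum, with a mean of 533 CPM with MCH and 997 CPM in Control. Prrx1, Thy1, Eng, Cxcl12, Lepr and Vcam1 were not called. Vcam1 had 22.3 to 26.4 CPM with MCH and 14.3 to 20.1 CPM in Control (edgeR adjusted p = 0.0745). Of 7 tested osteoblast markers, 4 fell (Alpl, Col1a1, Col1a2 and Spp1), while Sp7 and Bglap had at most 4 counts in any library. Runx2, Ifitm5 and Phex were not called. The summed level of the osteoblast list was 8103 to 8947 CPM with MCH and 11870 to 12840 CPM in Control. Most of it came from Col1a1 (mean 3813 CPM with MCH, 5172 CPM in Control) and Col1a2 (mean 4119 CPM with MCH, 5912 CPM in Control). Both tested chondrocyte markers, Sox9 and Acan, fell, while Col2a1, Col10a1 and Comp had at most 11 counts in any library (summed level 30.9 to 36.3 CPM with MCH, 45.2 to 47.3 CPM in Control). Of 5 tested smooth muscle and pericyte markers, 1 rose, Tagln (summed level 1688 to 1873 CPM with MCH and 1411 to 1553 CPM in Control). Of 5 tested monocyte and macrophage markers, 1 fell, Cd14 (summed level 138 to 177 CPM with MCH and 166 to 170 CPM in Control), and Ptprc had 0 to 2 counts in any library. MCH replicate 3 stood apart in this list. Ctss had 7, 9 and 92 counts with MCH, against 5, 23 and 10 in Control. Adgre1 had 4, 2 and 50 counts with MCH, against 6, 11 and 0 in Control. MCH replicate 3 was also the highest of the 6 libraries for Csf1r, C1qb, Lyz2 and Cd68. Cd68, a lysosomal protein of macrophages, had 40.5, 43.2 and 54.2 CPM with MCH, against 37.2, 30.2 and 31.9 CPM in Control, and was not called (edgeR adjusted p = 0.0655). Without MCH replicate 3 the log2 fold change was -1.18 for Wnt10b, -0.99 for Dkk3, -1.51 for Sfrp4 and -0.77 for Axin2, and Wnt10b and Dkk3 were still called. Among adipocyte markers 1 of 4 tested, Lpl, rose (summed level 119 to 143 CPM with MCH, 124 to 138 CPM in Control), and Adipoq and Plin1 had at most 3 counts. Cd3e, the 1 tested lymphocyte marker, rose, with a summed level of 7.39 to 9.28 CPM with MCH and 2.64 to 3.54 CPM in Control. No osteocyte, granulocyte or endothelial marker was called among 2 tested in each list. The part of these shifts in the falls of Wnt10b, Dkk3, Sfrp4 and Axin2 was not tested.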

How the data were processed

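Per the file headers, the deposited values are raw counts and FPKM of each gene in each of 6 libraries. The p-values and q-values in it come from the authors' comparison, per the file headers. The submitters' processing notes name the build GRCm38 (mm10). Which aligner, counter, annotation and strand setting were used is not given in the sources used here. Reads from a gene and its antisense partner thus cannot be told apart. Column names with MCH were matched to the MCH titles. The remaining 3 carry neither group's name. They were read as Control, the only other group in the series, and every direction rests on this.

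The test was edgeR 4.0.16 (R 4.3.3) on the counts: filterByExpr (minimum count 10, minimum total 15), TMM scaling, a robust quasi-likelihood fit on group, two-sided. SEs are the fitted log2 coefficient over the square root of F, and 95% intervals use the fit's total degrees of freedom. No library repeated another: chi-square over its degrees of freedom was 14.9 to 25.3 within groups. Counting intervals cover counting error only. The members and lists were chosen with earlier results of these data known. Named pathway genes are those called in each role and the most abundant one not called. Alternatives were DESeq2 1.42.0, limma 3.58.1 with voom weights, scaling by RLE or by upper quartile, other filters, a non-robust fit, limma on log2 of FPKM plus 1 or 0.1, a length correction, a replicate block and leaving out each library.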

Additional observations from a re-analysis of the deposited data

How the results depend on the processing

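Leaving out 1 library at a time gave 65 to 722 genes higher and 256 to 867 lower over all genes, 2 to 3 members lower, and 1 to 2 pathway genes higher and 4 to 9 lower. No member was higher in any of these fits. The log2 fold change of Wnt4 ranged from -0.01138 (without Control replicate 3) to 0.22 over them and that of Cd44 from -0.60 to 0.01969 (without MCH replicate 3), so both changed sign. DESeq2 called 800 genes higher over all genes, and the cause was not tested. No pairing by the numbers in the titles was seen: deviations of same-numbered libraries from their group means correlated across genes at -0.172, -0.027 and 0.002. No label says whether same-numbered samples shared an animal or culture, and these values cannot settle it. With the replicate number as a block, 28 genes were higher and 151 lower over all genes, 1 member (Dkk3) was lower, and 1 pathway gene was higher and 1 lower. Among the 11 alternatives other than leaving out a library, Dkk3 was called in 11, Wnt10b and Sfrp4 in 10 and Axin2 in 6, all in the same direction. Axin2 missed the threshold with limma-voom (adjusted p = 0.0532), the non-robust fit (0.0509), limma on log2(FPKM + 1) (0.0592) and on log2(FPKM + 0.1) (0.0718), and the block (0.173). Low counts limit Sfrp1 and Dkk2 most.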

Other observations

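Some pathway genes outside the members varied widely between libraries of 1 group, and were chosen here after their values were seen. Wisp1, a secreted matricellular gene listed among the Wnt targets, had 445, 485 and 502 counts with MCH, against 16, 629 and 292 counts in Control. Apc, a scaffold of the β-catenin destruction complex, had 259, 141 and 551 counts with MCH, against 481, 495 and 242 counts in Control. Of 50 list genes averaging 100 counts or more, these 2 (4.0%) had a group whose highest CPM was at least 4 times its lowest. The share was 2.11% over all 10489 genes with such counts. Vangl2, a planar polarity gene, had 194, 196 and 52 counts with MCH, against 193, 245 and 226 in Control. Cd44 had 2222, 2875 and 1041 counts with MCH, against 2326, 2705 and 2566 in Control. MCH replicate 3 was lowest in both, but this did not hold for all such genes. Tnks, also on the list, had 231, 84 and 96 counts with MCH, against 199, 340 and 272 in Control, and was lowest in MCH replicate 2. Apc was highest in MCH replicate 3.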
